A study of Mus musculus with 6 samples.

Results

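The mevalonate pathway enzymes are represented here by 8 genes of mouse liver: Acat2, Hmgcs1, Mvk, Pmvk, Mvd, Idi1, Fdps and Ggps1. They were listed by name, without a rule on their values, but with earlier results of these data known. Each was found as a single row, 8 of the 54600 genes in the table, and all 8 were among the 11440 genes tested. Liver RNA of mice kept for 16 weeks on a high-fat diet was sequenced, and the 6 libraries fall into 2 groups of 3. The first group was labelled wild type (WT) and the second hepatocyte-specific HIF-2α knockout (KO). All animals analysed here received the same diet. The sources used here do not give the strain, age or sex of the mice, or the Cre driver behind the deletion.

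The mevalonate pathway turns acetyl-CoA into the isoprene units from which cholesterol, ubiquinone, dolichol and the lipid anchors of small GTPases are built. In liver its genes are classical targets of the sterol-regulated factor SREBP-2, which is released from the endoplasmic reticulum when membrane cholesterol is low. Acat2 and Hmgcs1 make HMG-CoA in the cytosol. Mvk, Pmvk and Mvd phosphorylate and decarboxylate mevalonate to isopentenyl diphosphate, which Idi1 isomerises. Fdps joins these units to farnesyl diphosphate, and Ggps1 extends that product to geranylgeranyl diphosphate.

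Levels are in TPM, a share of all transcripts that divides out transcript length and fixes each library's total, so levels of different genes can be set side by side. TPM keeps no read totals, so the sequencing depth is unknown. The knocked-out gene did not separate the labels in the direction of a loss. Epas1, which encodes HIF-2α, was at 23.8, 26.0 and 21.0 TPM under the WT label, against 26.6, 35.1 and 29.4 TPM under the KO label. In TPM, all 3 values labelled KO lay above all 3 labelled WT, by +0.34 on the log2(TPM + 1) scale. With median-ratio scaling, another way to put libraries on 1 scale, this difference was +0.23. Its factors, 0.983 for WT replicate 2 and 1.06 for KO replicate 1, would place WT replicate 2 above KO replicate 1. These are whole-liver, whole-gene values, in which cells other than hepatocytes also carry the gene, and every direction below is between libraries labelled KO and libraries labelled WT. Hepatocyte markers were abundant throughout, with 9 of 10 listed names found and a summed level between 54825 and 78181 TPM. In whole tissue, fewer cells of a type and less RNA per cell cannot be told apart. The labels do not say that the libraries came from separate animals, so p-values cover only the spread among these samples, which may be technical.

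The promoters of Hmgcs1, Mvd, Ggps1 and Pmvk, on which the comparison turns, are shown first. In TPM, every library labelled WT lay above every library labelled KO in Hmgcs1 and Mvd, and the reverse held in Ggps1. Pmvk varied most between libraries of one label. RefSeq windows (GRCm38.p6, the build of mm10) run from 250 bases before to 50 bases after a start site and were available for 7 of the 8 genes, with 2 windows for Pmvk. Fdps is named only. Of the Pmvk windows only the first is shown, and which of its start sites was used in these libraries was not tested. The windows shown are Hmgcs1, chr13:119690101-119690400, plus strand; Mvd, chr8:122443373-122443672, minus strand; Pmvk, chr3:89454291-89454590, plus strand; and Ggps1, chr13:14063439-14063738, minus strand. They are printed 5′ to 3′ on the strand of the gene. Capitals mark the sterol regulatory element core TCACNCCAC and the CCAAT box, on either strand.
Hmgcs1: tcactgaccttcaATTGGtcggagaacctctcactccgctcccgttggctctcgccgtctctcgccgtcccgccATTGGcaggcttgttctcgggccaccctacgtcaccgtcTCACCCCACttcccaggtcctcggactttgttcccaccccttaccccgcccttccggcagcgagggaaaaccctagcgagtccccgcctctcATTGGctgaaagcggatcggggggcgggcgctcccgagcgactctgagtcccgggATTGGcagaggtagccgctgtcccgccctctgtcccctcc
Mvd: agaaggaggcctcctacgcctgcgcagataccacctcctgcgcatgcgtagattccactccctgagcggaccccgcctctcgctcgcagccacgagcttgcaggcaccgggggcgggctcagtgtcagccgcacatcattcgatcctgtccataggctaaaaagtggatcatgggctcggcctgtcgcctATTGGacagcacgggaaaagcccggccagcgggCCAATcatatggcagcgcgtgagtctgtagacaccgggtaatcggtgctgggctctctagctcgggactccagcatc
Pmvk: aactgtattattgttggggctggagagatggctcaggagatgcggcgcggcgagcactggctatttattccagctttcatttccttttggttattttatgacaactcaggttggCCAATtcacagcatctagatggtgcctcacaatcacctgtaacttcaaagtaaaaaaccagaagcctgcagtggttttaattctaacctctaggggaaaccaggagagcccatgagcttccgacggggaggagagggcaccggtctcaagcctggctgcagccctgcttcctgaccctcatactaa
Ggps1: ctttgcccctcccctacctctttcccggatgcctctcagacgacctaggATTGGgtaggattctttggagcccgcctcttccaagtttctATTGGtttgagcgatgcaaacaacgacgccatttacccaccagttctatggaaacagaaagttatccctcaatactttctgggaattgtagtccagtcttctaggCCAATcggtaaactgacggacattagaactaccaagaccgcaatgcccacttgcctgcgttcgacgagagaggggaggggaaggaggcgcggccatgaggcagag

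The 4 windows differ in how many of these letters they hold. The Hmgcs1 window held the only match to TCACNCCAC, with its first base at position -137 from the start site, and 4 CCAAT boxes. The sterol core was found in 1.24% of all 32851 RefSeq windows. Mvk held 5 CCAAT boxes, Ggps1 held 3, Mvd and Idi1 held 2 each, the first Pmvk window held 1, and the second Pmvk window and Acat2 held none. In all, 6 of 7 genes had a CCAAT box, which is the letters bound by the factor NF-Y, against 41.1% of all genes with a window. The GC box GGGCGG, bound by Sp1, was in 5 of 7 genes (Acat2, Hmgcs1, Mvk, Mvd and Idi1), against 38.2% of all genes. The E-box CACGTG and the core of hypoxia response elements, ACGTG, which the E-box contains, were in none of the 7, against 8.09% and 21.8% of all genes. All motifs were searched on both strands. A match is a description of letters, and the absence of one says only that these letters are not in the window.

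**Figure D1:**
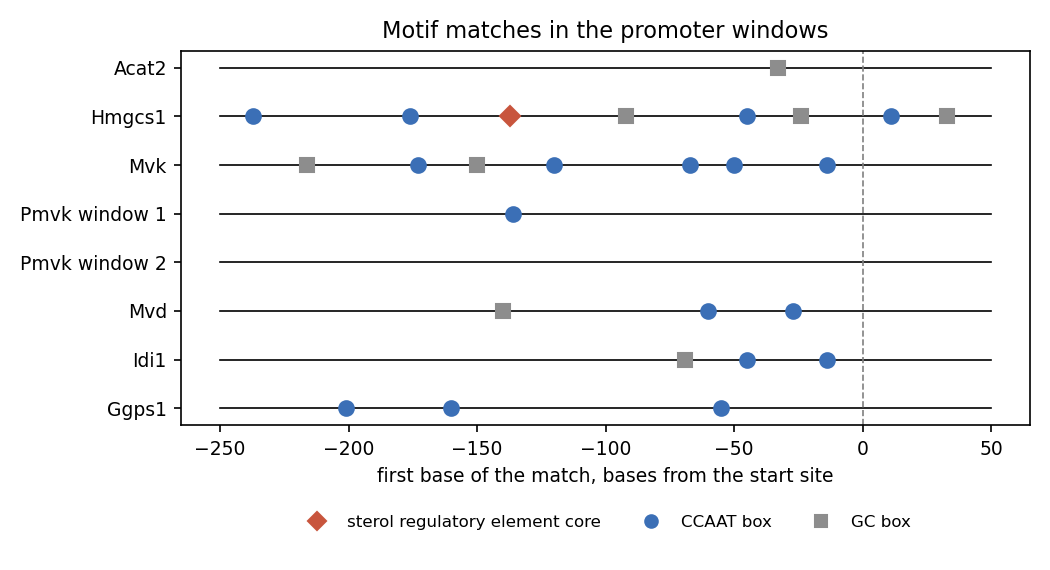
Positions of motif matches in the promoter windows of 7 mevalonate pathway genes. The horizontal axis is the distance in bases of the first base of a match from the RefSeq start site (dashed line), and each row is 1 window. The Hmgcs1 window holds the only sterol regulatory element core, at -137, and Mvk has the most CCAAT boxes, 5.

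The 8 genes covered a wide range of levels. Fdps was the highest, with a mean over the 6 libraries of 189.7 TPM, and was followed by Idi1 (117 TPM), Hmgcs1 (105 TPM), Acat2 (40.8 TPM), Pmvk (35.2 TPM), Mvk (11.3 TPM), Mvd (7.40 TPM) and Ggps1 (5.09 TPM). Fdps was above 95.7% of all tested genes in mean level, and Ggps1 was above 38.5%. The order was not firm at every step. The ranges of neighbouring genes were separate only between Hmgcs1 and Acat2 and between Pmvk and Mvk. Within libraries, Fdps was above Idi1, Hmgcs1 above Acat2, Pmvk above Mvk, and Mvk above Mvd in all 6 libraries. Idi1 was above Hmgcs1 in 4 of 6 libraries, Acat2 above Pmvk in 4, and Mvd above Ggps1 in 3, so these neighbours did not differ beyond their spread. Hmgcs1, Idi1 and Fdps were thus at 73.2 TPM or more in every library, and the other 5 genes were at 60.8 TPM or less. Summed over the 8 genes, the level was 465, 581 and 593 TPM under the WT label and 346, 712 and 371 TPM under the KO label. The groups overlapped, with KO replicate 2 the highest of the 6 libraries and KO replicates 1 and 3 the lowest.

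**Figure D2:**
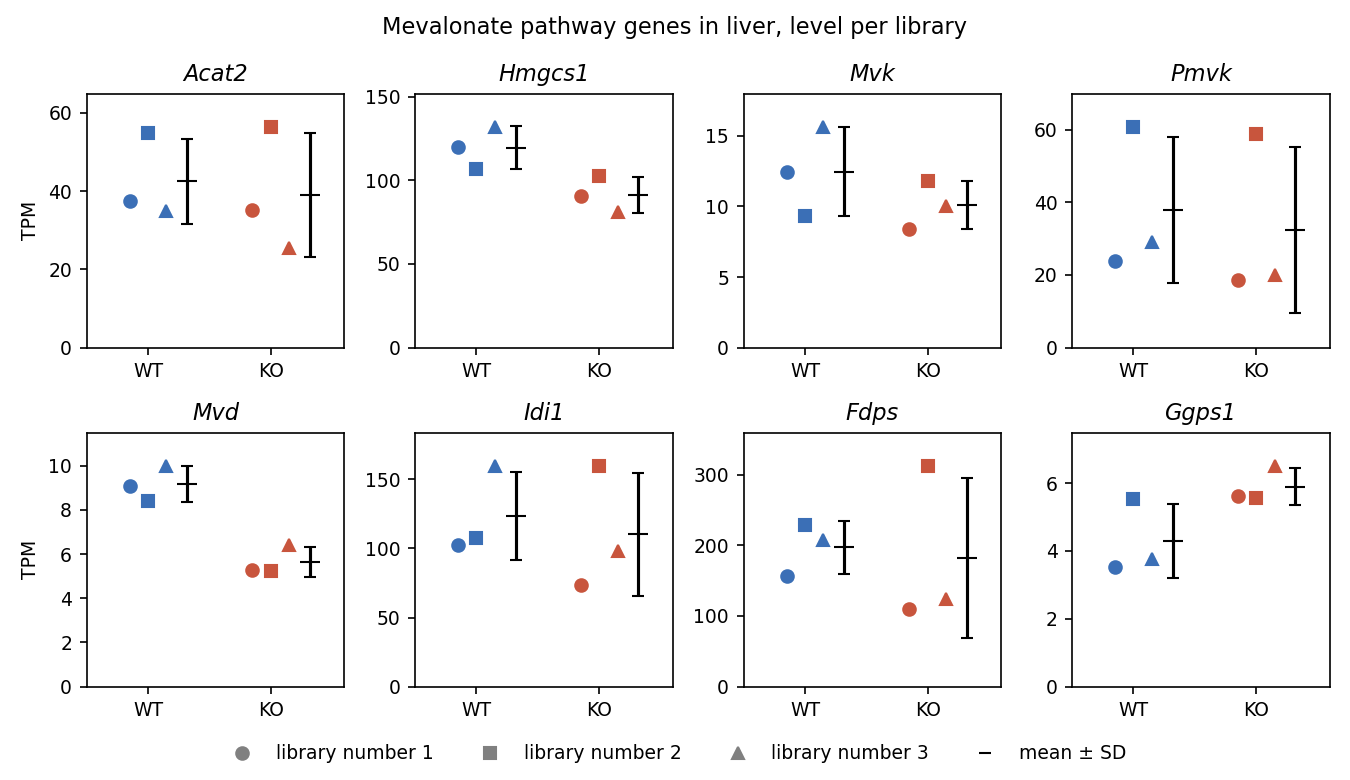
Level of each mevalonate pathway gene in TPM (vertical axes, each from 0) in the 3 libraries labelled WT and the 3 labelled KO. Points are libraries, with their number given by the symbol, and bars show the mean ± SD (n = 3). Mvd and Hmgcs1 have all WT points above all KO points, Ggps1 has all KO points above all WT points, and in Pmvk, Acat2 and Fdps both libraries numbered 2 stand above the rest.

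At the entry to the pathway, Hmgcs1 (MSTRG.929|ENSMUSG00000093930; mm10 chromosome 13, 119690379 to 119708260, plus strand; 11 exons in its longest coding transcript) encodes the cytosolic synthase that makes HMG-CoA. It was at 120, 107 and 132 TPM under the WT label, against 90.4, 102 and 80.8 TPM under the KO label. The groups did not overlap, although WT replicate 2 and KO replicate 2 were close. Group means were 119.5 ± 12.7 TPM (WT) and 91.2 ± 10.7 TPM (KO; SD, n = 3 each), and the level labelled KO was 23.7% lower. On the log2(TPM + 1) scale the difference was -0.39 (standard error 0.14) with a 95% limma interval from -0.72 to -0.05. The limma p was 0.0281 before and 0.993 after adjustment over all tested genes, so the gene did not pass the threshold of 0.05.

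Acat2 (MSTRG.1533|ENSMUSG00000023832; chromosome 17, 12942890 to 12960747, minus strand) encodes the cytosolic thiolase that joins acetyl-CoA molecules to acetoacetyl-CoA. It was at 37.5, 55.0 and 35.0 TPM under the WT label, against 35.2, 56.5 and 25.6 TPM under the KO label. Both libraries numbered 2 were the highest, the groups overlapped, and the log2 difference was -0.16 with an interval from -0.86 to +0.53 (limma adjusted p = 0.993). Its level is uncertain because a close paralog lies beside it. Acat3 was 97.7% identical to Acat2 over 1477 bases of transcript and was at higher levels, 168, 124 and 157 TPM under the WT label and 178, 116 and 180 TPM in those labelled KO. The libraries numbered 2 were the lowest in Acat3 and the highest in Acat2, and how reads of the copies were divided is not known. Tcp1, a chaperonin gene that matched Acat2 in antisense over 445 bases, had 79.0, 68.3 and 68.0 TPM (WT) and 78.6, 80.2 and 79.0 TPM (KO).

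Of the 3 genes that carry mevalonate to isopentenyl diphosphate, Mvd had the smallest p of the 8 genes. Mvd (ENSMUSG00000006517; chromosome 8, 122433601 to 122443422, minus strand; 10 exons) encodes the decarboxylase of the last step. It was at 9.07, 8.38 and 9.999 TPM under the WT label, against 5.27, 5.23 and 6.42 TPM under the KO label. The lowest value labelled WT was above the highest labelled KO, and the separation was seen for each of the 3 library numbers. Group means were 9.15 ± 0.811 TPM (WT) and 5.64 ± 0.672 TPM (KO; SD, n = 3 each), 38.4% lower under the label KO. The log2 difference was -0.61 with a standard error of 0.135 and an interval from -0.93 to -0.30. The limma p was 0.00231 unadjusted and 0.993 adjusted, and the exact two-sided permutation p was 0.10, the smallest that 3 libraries against 3 allow.

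Mvk and Pmvk are the kinases that act before Mvd. Mvk (MSTRG.2676|ENSMUSG00000041939; chromosome 5, 114444269 to 114460591, plus strand) phosphorylates mevalonate itself and was at 12.4, 9.29 and 15.6 TPM under the WT label, against 8.41, 11.8 and 10.03 TPM under the KO label. The groups overlapped because WT replicate 2 was low and KO replicate 2 was high, and the log2 difference was -0.26 with an interval from -0.74 to +0.22. Pmvk (ENSMUSG00000027952; chromosome 3, 89454541 to 89469013, plus strand) adds the next phosphate and was at 23.7, 60.8 and 29.1 TPM under the WT label, against 18.6, 58.8 and 20.02 TPM under the KO label. WT replicate 2 was 2.30 times the mean of the other libraries labelled WT, and KO replicate 2 was 3.05 times the mean of the other libraries labelled KO. Its residual SD of 0.81 on the log2 scale was above that of 97.5% of all tested genes. The log2 difference between the labels was -0.30, with an interval from -1.46 to +0.86 (limma adjusted p = 0.993). With the library number as a block, the same difference had an interval from -0.59 to -0.01 and a limma p of 0.0451 unadjusted and 0.724 adjusted. The pairing by number comes from these data and not from the labels, so p-values with the block, here and below, rest partly on it. Pmvk was lower in the KO-labelled library under each number.

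In the branch that builds longer chains, Idi1 and Fdps had wide spreads and Ggps1 went the other way. Idi1 (MSTRG.873|ENSMUSG00000058258; chromosome 13, 8885501 to 8892451, plus strand), the isomerase, was at 103, 108 and 159.9 TPM under the WT label, against 73.2, 159.6 and 98.1 TPM under the KO label. WT replicate 3 and KO replicate 2 were nearly equal and stood above the rest, and the log2 difference was -0.20 with an interval from -0.91 to +0.50. Fdps (ENSMUSG00000059743; chromosome 3, 89093588 to 89101959, minus strand), the farnesyl diphosphate synthase, was at 156, 228 and 208 TPM under the WT label, against 109.6, 313 and 124 TPM under the KO label. KO replicate 2 was the highest of all and KO replicates 1 and 3 were the lowest, so the values labelled KO spanned those labelled WT, with a log2 difference of -0.26 and an interval from -1.16 to +0.64. The summed level of 5 red blood cell markers was also highest in KO replicate 2, at 1830 TPM against 634 to 1048 TPM in the others, through its 4 haemoglobin genes and not through Alas2. The part of these cells in the Idi1 and Fdps values was not tested.

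Ggps1 (ENSMUSG00000021302; chromosome 13, 14050659 to 14063488, minus strand) encodes the synthase of geranylgeranyl diphosphate, the anchor attached to many small GTPases. It was at 3.54, 5.54 and 3.77 TPM under the WT label, against 5.62, 5.57 and 6.52 TPM under the KO label. All values labelled KO were above all labelled WT in TPM, but WT replicate 2 and KO replicate 2 were almost the same. With median-ratio scaling WT replicate 2, at 5.63, was above KO replicates 1 and 2, at 5.30 and 5.08, so the groups overlapped. Group means were 4.28 ± 1.09 TPM (WT) and 5.90 ± 0.533 TPM (KO; SD, n = 3 each), a log2 difference of +0.40 with an interval from -0.0030 to +0.81. The limma p was 0.0513 unadjusted and 0.993 adjusted, and with median-ratio scaling 0.139 and 0.9998. Because Fdps makes the substrate that Ggps1 extends, their ratio was also taken in each library. It was 44.0, 41.2 and 55.1 under the WT label and 19.5, 56.1 and 19.0 under the KO label, with KO replicates 1 and 3 the lowest and KO replicate 2 the highest of the 6 (exact two-sided permutation p = 0.4). The ratio of Idi1 to Fdps varied less, at 0.658, 0.472 and 0.769 (WT) and 0.668, 0.510 and 0.792 (KO), where the groups overlapped and the libraries numbered 2 were the lowest.

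Across the 8 genes, none passed the threshold (limma, Benjamini-Hochberg adjusted p below 0.05) in either direction, where 0.00874% of all tested genes did, 1 gene of 11440. Before adjustment, 2 of the 8 had a limma p below 0.05 and both, Mvd and Hmgcs1, were lower in the libraries labelled KO, where 3.15% of tested genes passed in either direction, 0.385% lower and 2.76% higher. These shares are 44 genes lower and 316 higher, and with median-ratio scaling 159 were lower and 142 higher. With the library number as a block, 3 of the 8 were lower at that level, with Pmvk added, against 0.918% of tested genes. Without the block the count of 2 also depended on single libraries. It was 1, Mvd, without WT replicate 1, WT replicate 3, KO replicate 1 or KO replicate 3, where the Hmgcs1 limma p was 0.0672, 0.0819, 0.0667 and 0.0895 unadjusted (adjusted p at least 0.724 in every alternative). It was 3 without KO replicate 2, where Fdps was added. Without WT replicate 2 it stayed at 2, and 1 gene, Ggps1, was higher at a limma p of 0.0104 unadjusted and 0.990 adjusted. Differences below 0 were found in 7 of the 8, all but Ggps1, and in 25.5% of all tested genes. This share holds for TPM only. With median-ratio scaling 7 of the 8 were again below 0, but the median of all tested genes was also below 0, at -0.012. Every WT value lay above every KO value in 2 of the 8 (0.857% of tested genes), and the reverse held in 1, Ggps1 (8.23% of tested genes). Together these were 3 of the 8, where 9.08% of tested genes had separate groups. These counts are for TPM, and with median-ratio scaling the Ggps1 groups overlapped. The median log2 difference was -0.26 over the 8 genes and +0.09 over all tested genes. Median-ratio scaling moved the median of all tested genes by -0.11, and relative to that median the 8 genes were at -0.36 without and -0.37 with this scaling. The direction of each of the 8 differences was the same under each scaling tried.

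**Figure D3:**
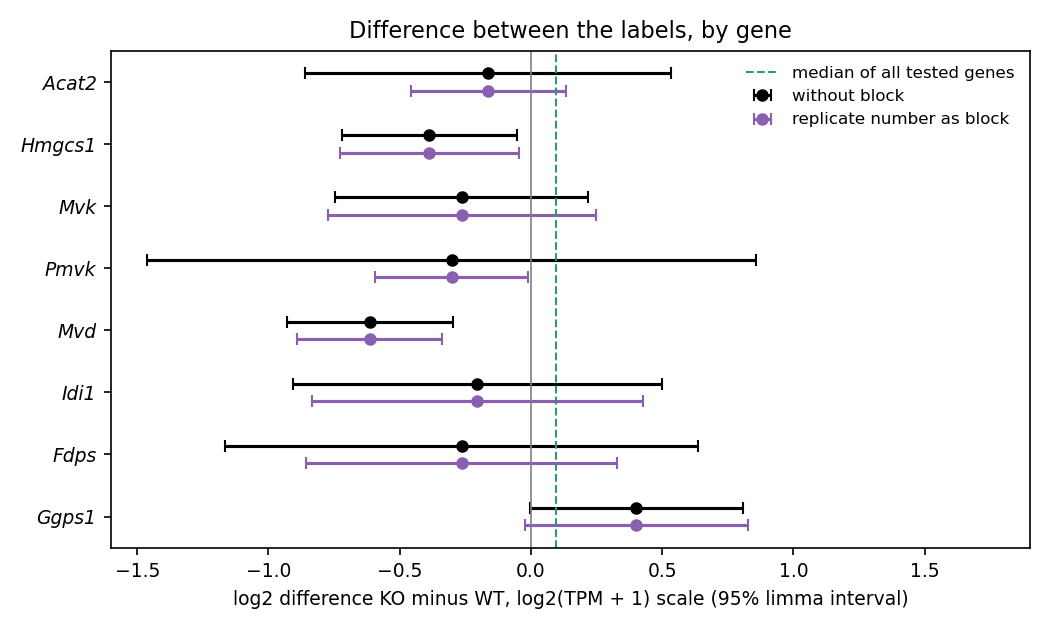
Difference between the labels for each mevalonate pathway gene, on the log2(TPM + 1) scale, with 95% limma intervals, without (black) and with (purple) the library number as a block. The dashed line is the median of all tested genes, +0.09. The intervals of Mvd and Hmgcs1 lie below 0 in both fits, and that of Pmvk does so with the block only.

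The differences were not even over the library numbers. Each group carries library numbers 1 to 3 in the labels, and same-numbered libraries deviated together across genes. Under number 1, 7 of the 8 genes were lower in the library labelled KO, with a median log2 difference of -0.44, and under number 3 the same 7 were lower, with a median of -0.58. Under number 2, only Hmgcs1, Pmvk and Mvd were lower, with differences of -0.06, -0.05 and -0.59, and the median was +0.02. KO replicate 2 exceeded WT replicate 2 in Idi1, Fdps and Mvk, by 0.57, 0.45 and 0.32 on the log2 scale. The Mvd difference was of like size under all 3 numbers, at -0.68, -0.59 and -0.57. Both libraries numbered 2 were the highest of the 6 in Acat2, Pmvk and Fdps. The sterol enzymes from squalene to cholesterol had a similar profile by library, with KO replicate 2 the highest and KO replicates 1 and 3 the lowest.

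**Figure D4:**
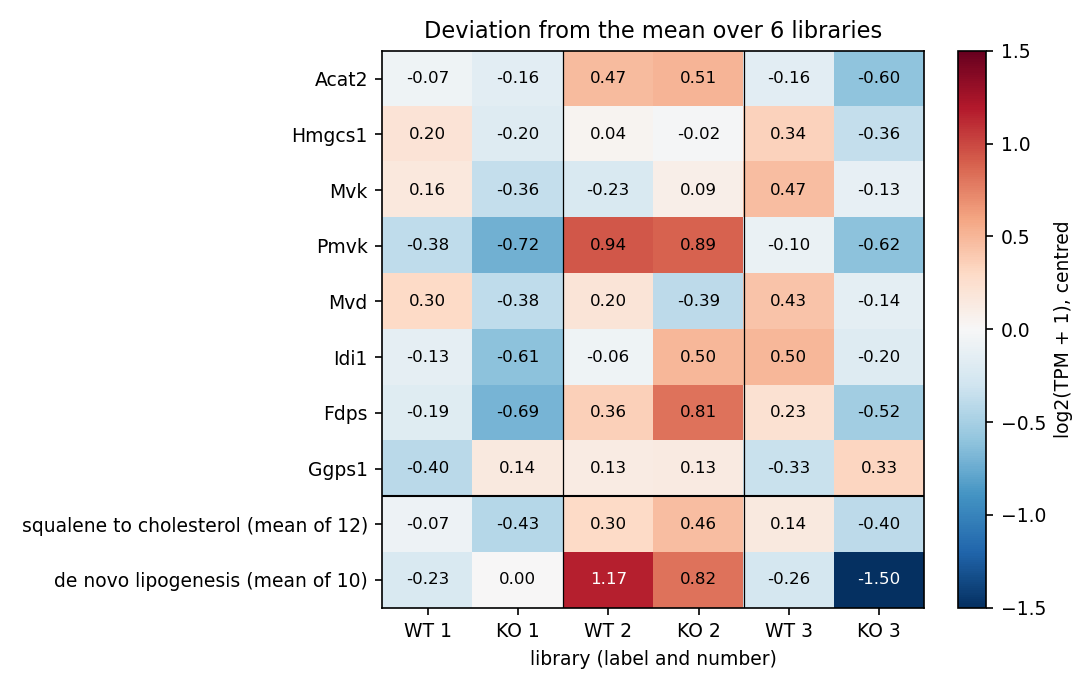
Deviation of each library (columns, ordered by number) from the mean over the 6 libraries for the 8 mevalonate pathway genes and for the means of 2 other gene lists, on the log2(TPM + 1) scale. Red is above and blue below the gene's own mean. Pmvk is red in both libraries numbered 2, like the lipogenesis genes, whereas Mvd is red in every WT library and blue in every KO library.

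The 12 genes from squalene to cholesterol were all below 0, with a median of -0.26, where 25.5% of tested genes were below 0 in TPM. With median-ratio scaling all 12 were again below 0, with a median of -0.39. None was called by limma or had an unadjusted p below 0.05. Fdft1, the squalene synthase that draws on farnesyl diphosphate, was at 38.8, 50.4 and 43.7 TPM under the WT label, against 32.7, 50.6 and 28.9 TPM under the KO label. Msmo1, a sterol demethylation enzyme, was at 113, 131 and 132 TPM and at 71.6, 153 and 74.2 TPM, again with KO replicate 2 above all others. Hsd17b7, which reduces a sterol ketone, was at 23.5, 26.7 and 22.6 TPM and at 15.4, 25.0 and 15.8 TPM. With the library number as a block its limma p was 0.0248 unadjusted and 0.724 adjusted. Those of Fdft1 and Msmo1 with the block were 0.0887 and 0.103 unadjusted (both 0.724 adjusted).

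Among 19 genes of sterol sensing and uptake, 9 were below and 10 above 0 with a median of +0.02, and with median-ratio scaling 14 were below and 5 above with a median of -0.10. None was called and 1 of the 19 had an unadjusted limma p below 0.05, against 3.15% of all tested genes. This was Insig1, which holds SREBP proteins in the endoplasmic reticulum, at 120.2, 162 and 157 TPM under the WT label, against 108, 103 and 99.0 TPM under the KO label. Its limma p was 0.0121 unadjusted and 0.993 adjusted. As in Mvd and Hmgcs1, the groups did not overlap. Mbtps2, a protease that releases SREBP proteins, also did not overlap, at 3.89, 3.64 and 2.85 TPM and at 2.78, 2.69 and 1.91 TPM. Its limma p with the block was 0.0329 unadjusted and 0.724 adjusted. Nr1h2, which encodes the sterol receptor LXRβ, was at 18.3, 16.2 and 13.4 TPM and at 18.5, 19.0 and 19.1 TPM. All its values labelled KO were higher in TPM, but factors of 1.03 for WT replicate 1 and 1.06 for KO replicate 1 would make its groups overlap. In TPM, 3 of the 19 genes had separate groups, against 9.08% of tested genes (0.857% lower and 8.23% higher). With the block the limma p was 0.0107 for Insig1 and 0.0981 for Nr1h2 unadjusted (both 0.724 adjusted).

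Genes listed around acetyl-CoA supply or lipogenesis were mostly highest in the libraries numbered 2, while the libraries numbered 3 differed from each other. All 5 genes of the supply list (Acly, Acss2, Slc25a1, Me1 and Cs) had their highest values in the libraries numbered 2 and their lowest in KO replicate 3. All 5 were lower in KO replicate 3 than in WT replicate 3. None was called or had an unadjusted limma p below 0.05 without the block. Acly, the ATP citrate lyase, was at 103, 228 and 98.1 TPM under the WT label, against 103, 176 and 44.9 TPM under the KO label. Malic enzyme, Me1, was at 81.7, 209 and 32.8 TPM and at 85.0, 124 and 20.9 TPM. With the block the Me1 limma p was 0.0462 unadjusted and 0.724 adjusted, that of Acly 0.0640 and 0.724, and that of Cs 0.271 and 0.745. Citrate synthase, Cs, was at 45.1, 47.3 and 39.6 TPM and at 44.7, 46.5 and 31.1 TPM. Acss2, the acetyl-CoA synthetase, was named after its values were seen: WT replicate 2 was 2.88 times the mean of the other WT libraries and KO replicate 2 was 4.78 times that of the other KO libraries, ratios larger than those of Pmvk. Of 10 lipogenesis genes, 8 were highest in both libraries numbered 2, and 9 were below 0 in TPM and again with median-ratio scaling. In TPM, 25.5% of tested genes were below 0. Of the 10, 9 were lower in KO replicate 3 than in WT replicate 3, and none was called or had an unadjusted limma p below 0.05 without the block. Fatty acid synthase, Fasn, had 157, 399 and 119 TPM (WT) and 166, 192 and 33.0 TPM (KO), while Mlxipl, which encodes ChREBP, was at 32.6, 30.9 and 21.1 TPM and at 28.4, 38.9 and 41.1 TPM. With the block the Fasn limma p was 0.0404 unadjusted and 0.724 adjusted, and that of Mlxipl was 0.157 and 0.724.

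Relatives of the 8 genes were not called either. Acat1, the mitochondrial thiolase, was at 183, 132 and 112 TPM under the WT label, against 178, 141 and 136 TPM under the KO label, and the groups overlapped. Idi2, the relative of Idi1, was listed at 0 in all 6 libraries.

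Of 19 genes that use farnesyl or geranylgeranyl diphosphate or their precursors, 18 were tested, 12 were above and 6 below 0 with a median of +0.05, and median-ratio scaling left 14 of 18 below 0. None was called, and 1 of the 18 had an unadjusted limma p below 0.05, against 3.15% of all tested genes. That gene was Trit1, which isopentenylates transfer RNA, at 5.07, 3.39 and 3.71 TPM under the WT label, against 5.27, 5.58 and 5.97 TPM under the KO label. Its limma p was 0.0385 unadjusted and 0.993 adjusted, and with the block 0.0511 and 0.724. Pggt1b, a subunit of a protein geranylgeranyl transferase, was at 3.73, 3.56 and 3.73 TPM and at 4.71, 4.03 and 5.12 TPM. In TPM, 2 of the 18, Trit1 and Pggt1b, had all values labelled KO above all labelled WT, against 8.23% of tested genes. As for Ggps1, median-ratio scaling would make the Pggt1b groups overlap, with factors of 0.876 for WT replicate 3 and 1.10 for KO replicate 2. Pdss1 and Pdss2, the subunits of the enzyme that makes the ubiquinone tail, were at 1.58, 2.31 and 2.40 TPM against 3.25, 4.19 and 1.92 TPM, and at 8.24, 5.99 and 5.61 TPM against 6.75, 4.58 and 5.97 TPM.

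Neighbouring and copied genes bear on several of the 8 values, since the sources used here do not say how strand or shared reads were handled. Mvk starts 209 bases from Mmab, a gene of vitamin B12 metabolism on the opposite strand that was named after its values were seen. Mmab was at 9.90, 9.25 and 12.3 TPM under the WT label, against 8.25, 10.5 and 9.71 TPM under the KO label, with the same highest (WT replicate 3) and lowest (KO replicate 1) library as Mvk. Ggps1 shares 257 exon bases, 5.44% of its exon sequence, with Arid4b on the opposite strand, a chromatin gene that was at 3.52, 4.56 and 3.46 TPM and at 3.82, 4.41 and 5.93 TPM. The groups of Arid4b overlapped, and its log2 difference was +0.23. Its limma p was 0.243 unadjusted and 0.993 adjusted. Fdps shares 26.7% of its exon bases with the same-strand gene Gm43738, which was at 2.88 to 7.73 TPM. Processed pseudogenes with 95% or more identity over 200 or more bases were found for Fdps (Gm5873, Gm3571 and Gm8163), Idi1 (Gm13502 and Gm35570) and Ggps1 (Gm5630). Gm35570 was at 3.69, 6.58 and 5.38 TPM and at 3.10, 7.26 and 12.05 TPM, and the others were at 0.214 TPM or less. No near-identical transcript by this rule was found for Mvk, Pmvk or Mvd, and for Hmgcs1 it was an antisense transcript, Gm48342, listed at 0 in all libraries, as was Gm48574, antisense to Idi1.

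Markers of other liver cells were also compared. The summed level of 9 stellate cell markers was 119 to 141 TPM under the WT label and 143 to 165 TPM under the KO label, without overlap in TPM. Dividing by the median-ratio factors, 0.876 for WT replicate 3 and 1.06 for KO replicate 1, would make these sums overlap. Of 8 tested members, 4 were higher at an unadjusted limma p below 0.05, against 2.76% of all tested genes. Their median log2 difference was +0.26, and +0.17 with median-ratio scaling. The sum of 6 cholangiocyte markers was 35.4, 31.9 and 24.9 TPM (WT) and 48.1, 56.2 and 35.1 TPM (KO), higher under the KO label at each number, and most of it was Spp1, the 1 of 2 tested members with an unadjusted limma p below 0.05. That of 8 macrophage markers was 163 to 233 TPM (WT) and 201 to 220 TPM (KO), and that of 7 endothelial markers 101 to 109 TPM and 105 to 120 TPM, with 1 of 7 below that p. Of 4 adipocyte genes, Adipoq and Lep were listed at 0 in all 6 libraries, and the sum of the list was 23.2, 1.152 and 0.385 TPM (WT) and 22.3, 2.47 and 0 TPM (KO), nearly all of it Cfd and highest in both libraries numbered 1. The sum of 5 neutrophil markers was 1.73 to 8.59 TPM (WT) and 5.12 to 6.10 TPM (KO), and no T, B or NK cell marker reached the level for testing. None of these marker genes was called after adjustment. The part of these cells in the Mvd, Hmgcs1 and Ggps1 values was not tested.

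The genes most like the mean profile of the 8 over the 6 libraries were sought among 6762 other protein-coding genes with a mean of at least 5 TPM. Likeness was the root-mean-square difference of centred log2(TPM + 1) values, for which the median gene had 0.33. The 5 nearest were Pmf1 (0.08), Fdft1 (0.09), Manea (0.10), Oxnad1 (0.10) and Slc6a12 (0.10). Pmf1, which encodes a kinetochore protein, was at 15.9, 20.8 and 19.2 TPM under the WT label, against 13.6, 19.2 and 14.7 TPM under the KO label. Slc6a12, a betaine transporter gene, was at 26.7, 32.1 and 26.5 TPM and at 20.8, 33.5 and 24.6 TPM. The 8 genes themselves lay between 0.22 (Hmgcs1) and 0.46 (Pmvk) from their own mean profile, and a gene without any variation would lie at 0.26. The 5 genes were picked as the nearest of 6762, so their smaller distances do not show how alike the 8 genes are.

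The direction of Mvd, Hmgcs1, Mvk and Ggps1 did not turn when any 1 library was left out, and that of Acat2, Pmvk, Idi1 and Fdps did. Mvd lay between -0.70 and -0.55 and Hmgcs1 between -0.47 and -0.30 with 1 library left out. Ggps1 lay between +0.30 and +0.57. Pmvk moved from -0.30 to +0.09 without WT replicate 2 and to -0.82 without KO replicate 2, Acat2 from -0.16 to +0.03 without WT replicate 2 and to +0.10 without KO replicate 3, Idi1 from -0.20 to +0.05 without KO replicate 1, and Fdps from -0.26 to +0.02 without KO replicate 1 and to -0.74 without KO replicate 2. No gene of the 8 passed the threshold under any alternative run.

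**Figure D5:**
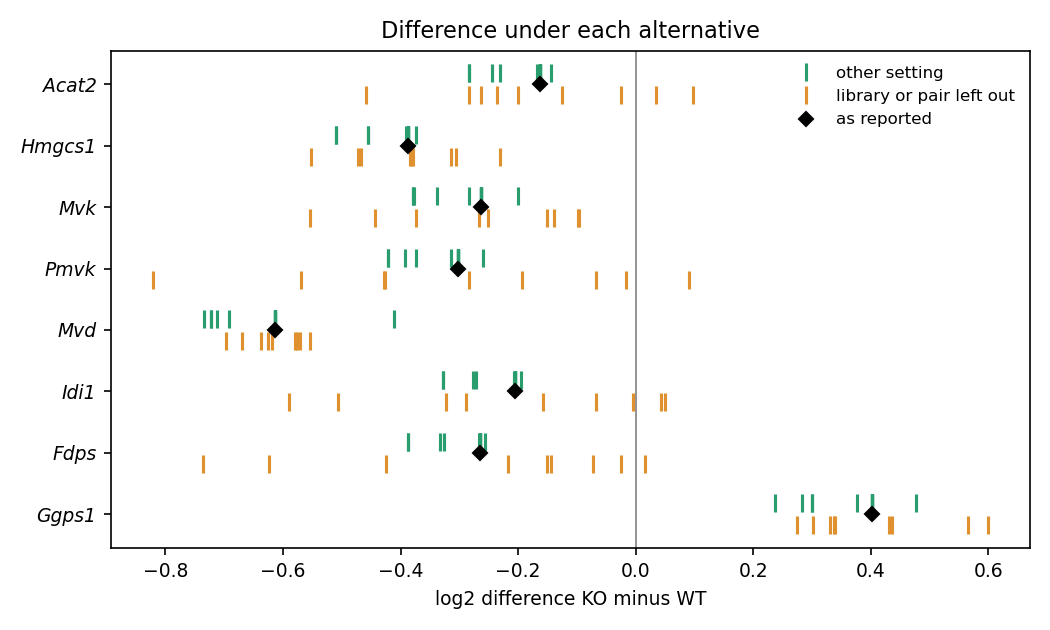
Difference between the labels for each mevalonate pathway gene (log2 scale) as reported (black diamonds), under other settings of scaling, filter, pseudocount, variance and block (green), and with a library or a same-numbered pair left out (orange). All marks of Mvd, Hmgcs1 and Mvk lie below 0 and all marks of Ggps1 above it, while those of Acat2, Pmvk, Idi1 and Fdps cross 0 when libraries are left out.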

How the data were processed

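The authors deposited 1 table of TPM for 54600 genes and 6 libraries, and the submitters' processing notes name mm10 and, without versions or order, DESeq2, HISAT2, fastp, limma and featureCounts. The sources used here do not say how TPM was computed. Names and coordinates came from GENCODE M21 (same build), which named 51492 of 54323 Ensembl identifiers. The 8 genes and all gene lists were chosen with earlier results of these data known.

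The 11440 genes that reached 1 TPM in 3 or more libraries entered a two-sided limma fit (version 3.58.1, R 4.3.3) of log2(TPM + 1) that let variance follow level, adjusted by Benjamini-Hochberg over all of them. This scale understates changes of low genes. The step was also run on simulated data with values drawn independently for each gene and library. That run lacks the shared deviations of same-numbered libraries described below, so it does not show how the fit behaves with them. Single genes were also compared by exact permutation (SciPy 1.17.1). Transcripts were aligned with BLAST 2.17.0, with limits of 95% identity and 200 bases set after a first look.

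No pair of libraries shared more than 1.20% of its values above 0, so no column is a copy of another. Each was counted as 1 replicate, although repeat libraries of one animal would also differ. Across genes, deviations from the group mean correlated at 0.16, 0.41 and 0.38 between libraries with the same number, against -0.37 to 0.03 between the rest. This pairing, which comes from the data and not the labels, was used in an alternative fit with the number as a block.

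Named were the 8 genes, Epas1, the 3 genes with the smallest p of each pathway list, measured relatives (some genes of this rule are not reported here), genes with overlapping exons or near-identical transcripts, and the 5 genes most like the mean profile. Alternatives were pseudocounts of 0.1 and 5, no filter or 5 TPM, median-ratio and quantile scaling, TPM without the 20 most abundant and mitochondrial genes, no trend, a robust trend, the block, and leaving out each library or same-numbered pair.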

Additional observations from a re-analysis of the deposited data

How the results depend on the processing

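No gene of the 8 passed the threshold under any of the alternatives run, with adjusted limma p between 0.724 and 0.9999. Each kept its direction under every setting of scaling, filter, pseudocount and variance. With 1 library left out, the log2 difference ran from -0.46 to 0.097 for Acat2, from -0.82 to 0.091 for Pmvk, from -0.51 to 0.050 for Idi1 and from -0.74 to 0.015 for Fdps, so these 4 reversed; Acat2 did so without WT replicate 2 (0.034) and KO replicate 3, and Idi1 also without the pair numbered 3 (0.042). Over all omissions, pairs included, Hmgcs1 ran from -0.55 to -0.23, Mvk from -0.55 to -0.097, Mvd from -0.70 to -0.55 and Ggps1 from 0.27 to 0.60. The median of the 8 genes went from -0.26 to between -0.49 and -0.071 without 1 library and to -0.55 and -0.062 without the pairs numbered 2 and 3. The median of all tested genes went to -0.012 with median-ratio scaling, with or without the replicate block, and to -0.0022 with quantile normalization.

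The replicate block changed no call among the 8 genes and left 0 genes called in the whole table. The 1 gene called lower in the whole table fell to 0 with a pseudocount of 5, no filter, a filter of 5 TPM, quantile normalization, or the block with or without median-ratio scaling, and to 0 or 1 with libraries left out, where 0 to 2 were called higher. Genes with unadjusted p below 0.05, 316 higher and 44 lower, were 635 and 138 with no filter, 177 and 20 with a filter of 5 TPM, 142 and 159 with median-ratio scaling, 141 and 155 with quantile normalization, 220 and 88 without the most abundant and mitochondrial genes, 602 and 105 with the replicate block, 228 and 288 with the block and median-ratio scaling, 183 to 460 and 37 to 88 without 1 library, and, without the pairs numbered 1, 2 and 3, 434, 175 and 253 higher and 69, 62 and 57 lower. The cause of these moves was not tested. Depth is unknown, so its limits cannot be given. Taking the sum of the rows of a symbol changed nothing, since each gene has 1 row.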
